A study of Mus musculus with 42 samples.

Results

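The cadherins, protocadherins, contactins and integrins are cell-surface adhesion genes, described here in the nodose ganglion (NG) and the dorsal root ganglion (DRG) of the mouse. Members were the genes whose array annotation symbol begins with Cdh, Cntn or Itgb followed by a number, or with Pcdh, Cntnap or Itga, without Cdh5 and Cdh19. They had to be read by a probe set (the oligonucleotides that together report 1 transcript) annotated to exactly 1 symbol. The rule found 92 genes among 18337 genes with such a probe set. The Mouse430_2 array read all 92 genes with 181 probe sets, and the older MG-U74Av2 array read 38 of them with 57. A further 6 and 8 probe sets, which name several symbols, were left out. The rule used symbols alone and no measured value. By spelling it also took in 3 genes that encode integrin binding proteins, such as Itgb1bp1, and these are counted apart from the subunits.

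All samples came from BALB/c mice kept in standard housing without treatment, and they formed 6 groups in 3 experiments. The first experiment lysed whole ganglia, 5 DRG and 7 NG, for MG-U74Av2. For the others, neurons were cut out of sections by laser microdissection, as 5 DRG and 5 NG samples for MG-U74Av2 and 9 DRG and 11 NG samples for Mouse430_2. A captured sample held about 150 neurons, which the series calls visceral sensory neurons. How these neurons were recognised, and the age and sex of the mice, are not given in the sources used here. Labelling started from about 12 µg of RNA, which the labels call amplified for captured MG-U74Av2 samples and total RNA for the rest. About 150 neurons hold far less total RNA than this, so the label of the captured Mouse430_2 samples is in doubt, and the part of amplification in differences between array types was not tested. Every sample description speaks of laser capture, but for the first experiment the extraction protocol says whole ganglia, and it was followed. No label states that samples of a group are separate animals, so the p-values cover only the spread between samples, which may be technical.

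Classical cadherins join cells by calcium-dependent binding, mostly to the same cadherin on the next cell, and hold the actin cytoskeleton through catenins. Protocadherins are relatives without that catenin link that give neurons surface identities, and contactins are lipid-anchored immunoglobulin proteins that work with contactin-associated proteins (Cntnap) at synapses and at the axonal junctions with myelinating Schwann cells. Integrins pair 1 alpha with 1 beta subunit to bind matrix proteins such as laminin, fibronectin and vitronectin, and in sensory ganglia they serve axon growth and the contact with glia and the basal lamina.

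The sequences below are the 250 bases before the RefSeq start site (build GRCm38.p6) of the 3 members per direction that differed most between captured NG and DRG neurons, among those with such a window whose groups did not overlap. Pcdh19, Cdh22 and Cntn5 were higher in NG, and Pcdh7, Itgb8 and Cdh8 in DRG. They are shown 5′ to 3′ on the gene's strand, and for Cntn5, which has 2 start sites, the window of 1 site is given. Capitals mark matches on either strand to the GC box GGGCGG, the CCAAT box CCAAT, the homeodomain site TAATTA or the TATA box TATAAA.
Pcdh19, chrX:133688994-133689243, minus strand: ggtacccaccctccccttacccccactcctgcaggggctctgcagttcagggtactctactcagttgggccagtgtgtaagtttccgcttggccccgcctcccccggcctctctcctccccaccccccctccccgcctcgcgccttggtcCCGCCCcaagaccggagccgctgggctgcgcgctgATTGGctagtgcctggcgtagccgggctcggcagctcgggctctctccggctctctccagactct
Cdh22, chr2:165234738-165234987, minus strand: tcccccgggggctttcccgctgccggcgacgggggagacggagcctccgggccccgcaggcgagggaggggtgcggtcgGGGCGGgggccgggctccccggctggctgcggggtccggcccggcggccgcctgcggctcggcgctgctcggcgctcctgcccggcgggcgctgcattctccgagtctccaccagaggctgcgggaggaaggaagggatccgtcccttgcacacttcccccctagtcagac
Cntn5, chr9:10904776-10905025, minus strand: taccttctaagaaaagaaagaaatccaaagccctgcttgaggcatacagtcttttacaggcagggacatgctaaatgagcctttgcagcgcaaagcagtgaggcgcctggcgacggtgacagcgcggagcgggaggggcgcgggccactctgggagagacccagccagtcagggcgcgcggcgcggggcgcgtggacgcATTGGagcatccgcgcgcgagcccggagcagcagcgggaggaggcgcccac
Pcdh7, chr5:57717831-57718080, plus strand: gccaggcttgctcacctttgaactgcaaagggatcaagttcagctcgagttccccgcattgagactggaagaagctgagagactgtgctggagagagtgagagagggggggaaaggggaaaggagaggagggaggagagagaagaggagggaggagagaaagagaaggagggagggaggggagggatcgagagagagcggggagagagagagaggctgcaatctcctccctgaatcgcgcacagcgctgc
Itgb8, chr12:119238277-119238526, minus strand: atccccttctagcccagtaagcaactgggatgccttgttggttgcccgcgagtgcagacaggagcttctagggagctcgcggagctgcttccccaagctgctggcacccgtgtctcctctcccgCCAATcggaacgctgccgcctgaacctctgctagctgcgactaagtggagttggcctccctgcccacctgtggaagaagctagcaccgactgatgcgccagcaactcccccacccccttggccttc
Cdh8, chr8:99416472-99416721, minus strand: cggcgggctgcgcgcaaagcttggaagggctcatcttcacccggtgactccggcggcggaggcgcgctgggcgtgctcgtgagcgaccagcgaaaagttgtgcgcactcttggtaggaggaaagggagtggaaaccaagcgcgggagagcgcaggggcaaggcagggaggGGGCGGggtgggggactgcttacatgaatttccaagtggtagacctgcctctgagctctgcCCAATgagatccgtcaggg

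Pcdh19 and Cdh8 each held 1 GC box and 1 CCAAT box, Cdh22 held 1 GC box, Itgb8 and the printed Cntn5 window held 1 CCAAT box each, and Pcdh7 held no match to these letters. The window of the other Cntn5 start site, not printed, held 1 GC box besides the CCAAT box. Over 32851 RefSeq windows of the same length, 32.7% held the GC box, 33.8% the CCAAT box, 4.84% TAATTA and 12.4% TATAAA. A window was found for 47 of the 92 members. The GC box was present in 2 of 5 windows of genes higher in captured NG neurons on Mouse430_2 and in 4 of 13 windows of genes higher in DRG, and the CCAAT box in 2 of 5 and in 7 of 13, with 1 window a gene. Counting every start site, the GC box was present for 3 of 5 genes and 4 of 13. The median GC content was 64.8% and 62.4% in these sets, 55.6% in the 22 windows of members that were tested and not called, and 52.4% over all windows. A match is a string of letters in this window and was not tested as a binding site.

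Signals are array intensities, scaled so that each array of a type had the same trimmed mean, and they are compared only within a probe set, not between genes. A low signal may be background, since detection calls were not analysed here. Tests took in the probe sets whose signal exceeded the 40th percentile of the array on as many arrays as the smaller group has, or more. A member was called if the limma p-value, adjusted by Benjamini-Hochberg over every probe set tested, lay below 0.05. Differences are NG minus DRG in log2(signal + pseudocount), which understates the differences of dim genes, and folds are on that scale. For genes read by more than 1 probe set, the brightest on average among those that passed the filter is given first. Of the 92 members, 34 were called between the ganglia in at least 1 experiment, a count whose share over all genes is not given. The 20 that were tested in no comparison were Cdh16, Cdh17, Cdh18, Cdh26, Itga1, Itga5, Itgam, Itgb1bp2, Itgb3, Itgb6, Pcdh1, Pcdh11x, Pcdhb4, Pcdhb5, Pcdhb6, Pcdhb8, Pcdhb13, Pcdhb14, Pcdhb18 and Pcdhgc4.

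In captured neurons, most called members were higher in DRG. On Mouse430_2, 68 members were tested and 30 were called (44.1%), where 26.6% of the 13973 genes tested were called. Of the 30, 6 were higher in NG and 24 in DRG, against 13% and 13.6% of all genes tested. The groups did not overlap for 11 of the 68 members (16.2%), and for 5.01% of all genes. On MG-U74Av2, 20 members were tested in captured neurons and 8 were called, against 22.9% of the 5784 genes tested. All 8 were higher in DRG, a direction that 11.9% of all genes tested took, against 11% for the other. The groups did not overlap for 5 of the 20, and for 17% of all genes. In whole ganglia, 9 of 19 tested members were called, 3 higher in NG and 6 in DRG, where 37.5% of 5897 genes were called, 20.6% in NG and 16.9% in DRG. The groups did not overlap for 3 of the 19, and for 19.7% of all genes. The median difference of the tested members was -0.32 on Mouse430_2 (-0.02 over all genes), -0.297 (0.047) in captured neurons on MG-U74Av2 and -0.265 (0.045) in whole ganglia. Some members passed the filter through 1 group alone, which favours members that differ. This was so for 12 of the 68 members on Mouse430_2, of which 10 were called, for 1 of 20 on MG-U74Av2 (not called), and for 3 of 19 in whole ganglia (1 called). Of the 56 other members on Mouse430_2, 20 were called, and all genes were not split in this way. On Mouse430_2 the 10 were Cdh22 and Cntn5 through NG, and Cdh8, Cdh11, Pcdh7, Pcdh18, Itgb8, Pcdhb3, Pcdhb10 and Pcdhb17 through DRG. Cdh22, Cntn5, Cdh8, Pcdh7, Pcdh18 and Itgb8 are also among the 11 members without overlap. Adjusted p-values of the 10 on that array are given with a filter on the mean over all samples, blind to group. This filter was added after seeing the data. The other group of such a member lies mostly below the filter threshold, so its difference depends on signals that may be background.

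**Figure D1:**
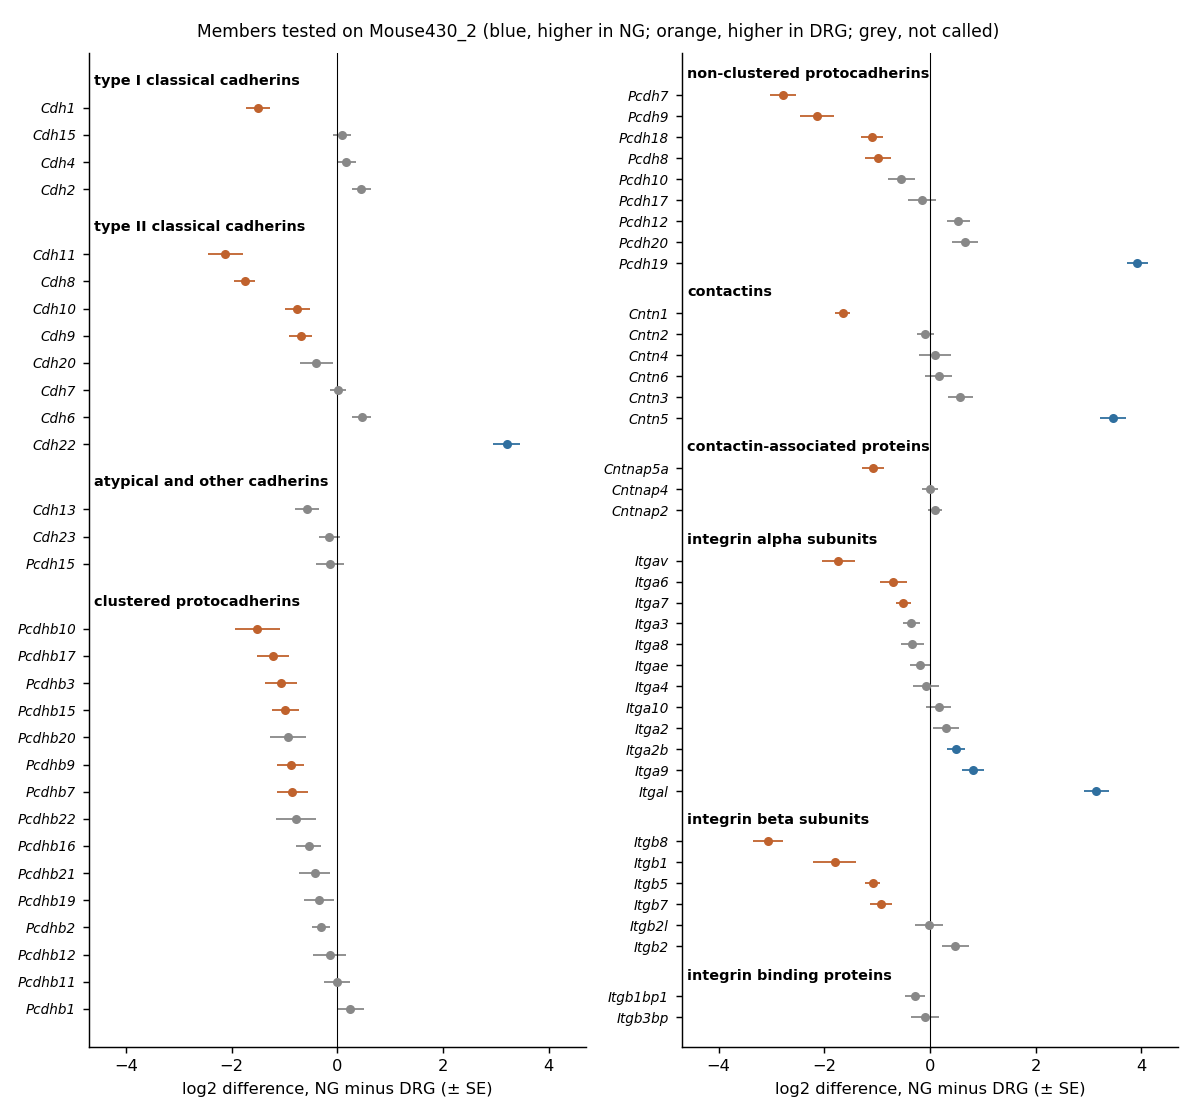
Difference NG minus DRG in captured neurons on Mouse430_2 for the 68 members tested, in log2 with bars of 1 SE, grouped by family. The 6 blue points (higher in NG) and 24 orange points (higher in DRG) were called, and grey points were not. Pcdh19 at 3.92 and Itgb8 at -3.06 mark the ends of the range of brightest tested probe sets.

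Markers of neurons and of other cell types differed between the ganglia in the same samples. Neuron markers were present in all 6 groups, with summed signals between 23000 and 38730 on every array. In captured neurons these sums were 23000 to 29820 in NG and 27170 to 38730 in DRG on Mouse430_2. There, 4 of 12 neuron markers were higher and 5 lower in NG. On MG-U74Av2 the sums were 27970 to 31550 in captured NG and 26040 to 27610 in captured DRG, with 1 of 9 markers higher and 2 lower. In captured neurons the summed signal of satellite glia and Schwann cell markers was 11130 to 14200 in NG and 14100 to 16940 in DRG on Mouse430_2, where 5 of 12 tested markers, among them Gja1 and S100b, were lower in NG and 0 higher. On MG-U74Av2 the sums were 12890 to 13790 in NG and 15080 to 17470 in DRG, with 4 of 11 markers lower in NG. Fibroblast markers summed to 945.4 to 2416 in NG and 1905 to 4444 in DRG on Mouse430_2 (3 of 7 lower in NG, led by Dcn at -1.85), and to 1728 to 3408 and 2900 to 6232 on MG-U74Av2 (1 of 7 lower). Among endothelial and mural markers on Mouse430_2, 3 of 11 were lower in NG, such as Rgs5 at -2.94, and 2 were higher, such as Kdr at 2.44. Of 8 tested leukocyte markers, 1 was higher in NG on Mouse430_2, the class II gene H2-Aa at 1.34. Their sums on that array were 729.5 to 1385 in NG and 673.7 to 1126 in DRG. On MG-U74Av2 the leukocyte sums were 1017 to 1271 in captured NG and 683.4 to 890.3 in captured DRG, fully apart, with 1 of 6 tested markers higher in NG. In whole ganglia they were 1557 to 2330 in NG and 992.8 to 1554 in DRG, with 3 of 9 higher. The part of these cell types in the member differences was not tested. Fewer cells of a type and less RNA per cell cannot be told apart in such samples.

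Among the type I classical cadherins, Cdh1 and Cdh2 gave values that differed between array types or probe sets. Cdh1, E-cadherin, had a signal of 294.1, 423.5 and 639.9 (lowest, median and highest) in the 9 DRG samples on Mouse430_2 and of 69.3, 156.7 and 271.5 in the 11 NG samples. The groups did not overlap, and the difference was -1.49 (SE 0.226, adjusted p = 1.43e-05). On MG-U74Av2, captured DRG neurons had 202.8, 220.3, 238, 241.2 and 250.5 and captured NG neurons 228.4, 249.9, 250.2, 314.1 and 358.4. These groups overlapped, and the difference of 0.25 (SE 0.152) was not called. Whole ganglia held 189.4 ± 21.09 in DRG (SD, n = 5) and 198.1 ± 41.89 in NG (SD, n = 7), also not called. The arrays read Cdh1 with different probe sets, and which of them reads the transcript better was not tested.

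N-cadherin, Cdh2, was higher in whole NG and lower in captured NG neurons on the same array type. In whole DRG its signal was 247.5, 270.7, 274.7, 323.3 and 433.5, and in whole NG it ran from 398.5 over a median of 528.4 to 717.8. The groups overlapped in 1 DRG sample, which lay above the lowest NG samples, and the difference was 0.78 (SE 0.161, adjusted p = 0.00109). With the deposited signals left unscaled it was 0.42 and not called (adjusted p = 0.205). In captured neurons on MG-U74Av2 the signals were 110.2, 146.4, 183.8, 189.6 and 207.2 in DRG and 92.07, 94.19, 105.9, 113.2 and 118.7 in NG, with a difference of -0.60 (adjusted p = 0.027). This call was lost when any of 5 of the 10 samples was left out (adjusted p from 0.052 to 0.0724). On Mouse430_2 the brighter Cdh2 probe set gave 0.46 and was not called (adjusted p = 0.0799), and another gave -1.17 (adjusted p = 0.000106), so no direction is given for that array. The retinal cadherin Cdh4 and the muscle cadherin Cdh15 were tested in all 3 experiments and called in 0 of them.

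Type II classical cadherins held members of both directions. Cdh22 had signals of 3.58, 7.15 and 31.43 (lowest, median and highest) in captured DRG neurons and of 62.67, 142.5 and 266.8 in captured NG neurons on Mouse430_2. Every NG sample lay above every DRG sample, and the difference was 3.20 (SE 0.254, adjusted p = 2.64e-10 with the filter blind to group). Of the 9 DRG samples, 1 exceeded the filter threshold, so the size of this difference rests on DRG signals that may be background. Cdh8 was the reverse, at 33.97, 51.9 and 87.12 in DRG and 2.68, 11.91 and 18.01 in NG. Its groups did not overlap either, with a difference of -1.75 (SE 0.204, adjusted p = 2.43e-07 with the blind filter), and 0 of the 11 NG samples exceeded the filter threshold. Cdh10 (-0.76) and Cdh9 (-0.69) were called lower in NG as well. The call of Cdh10 was lost without DRG sample 014 (adjusted p = 0.0536) and that of Cdh9 without DRG sample 010 or 014 (adjusted p up to 0.0537), and other probe sets of Cdh10 were not called. Cdh6 (0.46), Cdh7 (0.01) and Cdh20 (-0.40) were not called.

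Cdh11, a type II cadherin of mesenchymal tissues and of some neurons, was lower in NG in each experiment. In whole DRG it read 318.5, 322.5, 329.5, 340.5 and 385.1, and in whole NG it ran from 38.44 over 60.51 to 147.1. The groups were apart, with a difference of -2.13 (SE 0.21, adjusted p = 6.04e-07). Captured DRG neurons on MG-U74Av2 gave 83.02, 185.8, 197.5, 204.4 and 271.9, and captured NG neurons 21.13, 24.64, 37.2, 100 and 102.2. The lowest DRG sample fell among the NG samples there, and the difference was -1.68 (SE 0.381, adjusted p = 0.00566). On Mouse430_2 it was 57.7, 99.06 and 244.7 in DRG and 3.98, 23.23 and 82.43 in NG, a difference of -2.12 (SE 0.325, adjusted p = 1.71e-05 with the blind filter) that a second probe set gave as -1.76. Of the fibroblast markers above, 3 of 7 were lower in captured NG samples on Mouse430_2 and 1 of 7 on MG-U74Av2. In whole ganglia 0 of 8 were lower in NG and 1 was higher. The part of fibroblasts in the Cdh11 differences was not tested.

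**Figure D2:**
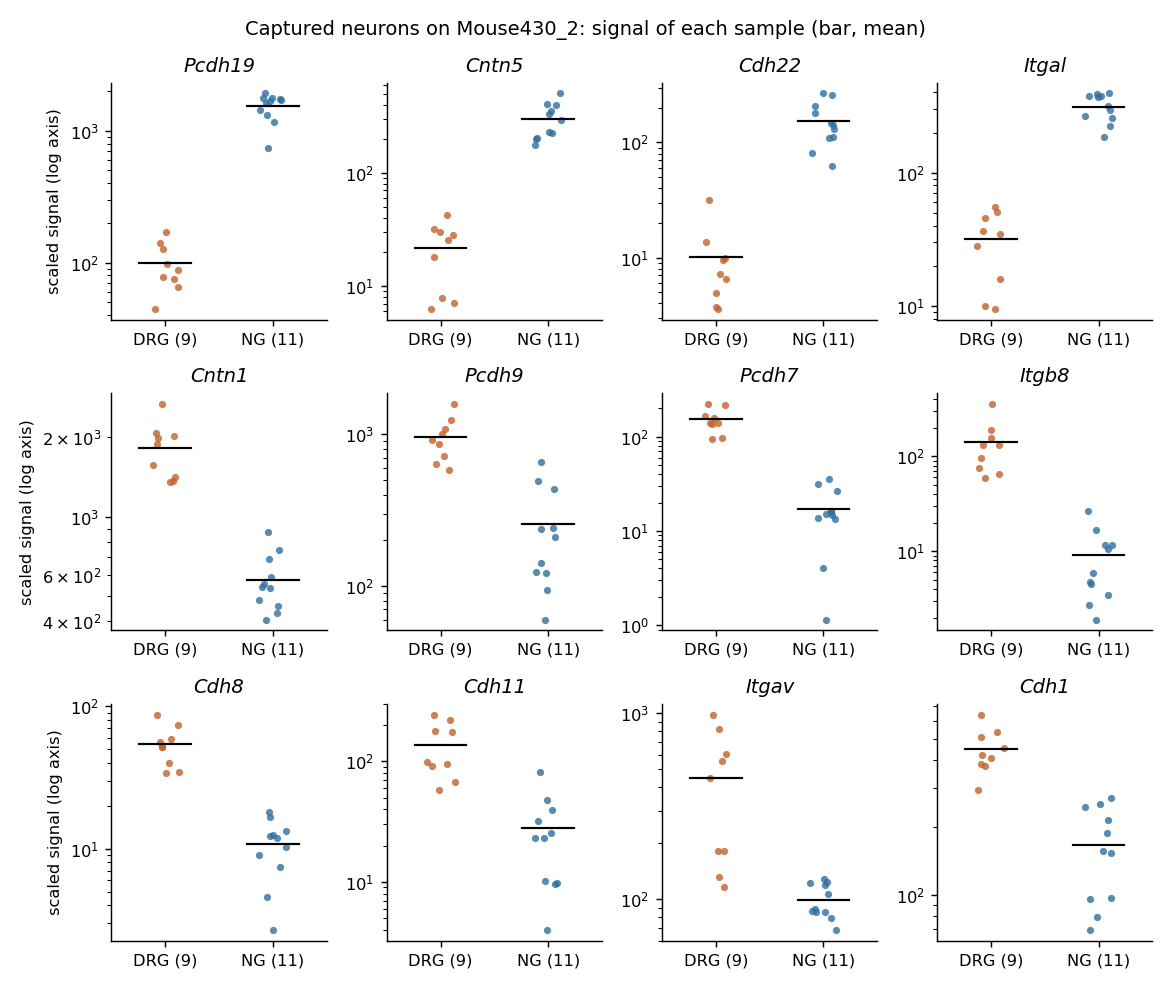
Scaled signal (log axis) of 12 members in each captured sample on Mouse430_2, 9 DRG samples in orange and 11 NG samples in blue, with a bar at the mean. The samples of the ganglia are fully apart for Pcdh19, Cntn5, Cdh22, Itgal, Cntn1, Pcdh7, Itgb8, Cdh8 and Cdh1, and overlap for Pcdh9, Cdh11 and Itgav.

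Pcdh19 had the largest difference of the 68 members. This non-clustered protocadherin is encoded on the X chromosome and is known from an inherited epilepsy. Its signal was 44.45, 88.2 and 170 (lowest, median and highest) in captured DRG neurons and 744.4, 1686 and 1925 in captured NG neurons on Mouse430_2. The lowest NG sample lay well above the highest DRG sample. The means were 1540 ± 344.1 (SD, n = 11) and 98.35 ± 39.87 (SD, n = 9), a 15.1-fold difference (log2 3.92, SE 0.196, adjusted p = 2.65e-14). The other probe sets of Pcdh19 gave 1.62 and 1.86, both called.

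The other called non-clustered protocadherins were higher in DRG, 4 of the 9 tested on Mouse430_2, where 13.6% of all genes tested were. Pcdh7 read 94.75, 140.5 and 221.8 in DRG and 1.15, 15.25 and 35.27 in NG, without overlap (-2.78, SE 0.249, adjusted p = 2.39e-09 with the filter blind to group), where 3 of the 11 NG samples exceeded the filter threshold. Pcdh9, a close relative of Pcdh7, read 580.7, 917 and 1583 in DRG and 60.02, 211.6 and 657.1 in NG. Its groups overlapped in the highest NG sample, the difference was -2.14 (SE 0.321, adjusted p = 1.18e-05), and a second probe set gave -3.24. Pcdh18 read 20.88, 31.57 and 42.1 in DRG and 3.13, 13.11 and 17.07 in NG, without overlap and with 1 of 11 NG samples above the filter threshold, a difference of -1.10. With the blind filter another Pcdh18 probe set was the brightest and gave -2.86 (SE 0.262, adjusted p = 3.69e-09). Pcdh8, which is regulated by neuronal activity, was lower in NG by 0.99 on the log2 scale (adjusted p = 0.00314). Pcdh10, Pcdh12, Pcdh17 and Pcdh20 were not called, at -0.54, 0.54, -0.16 and 0.66. MG-U74Av2 read 2 of the 11 non-clustered protocadherins, and neither was tested there.

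The clustered protocadherins, here mostly the beta genes that lie side by side on 1 chromosome, were lower in NG where called. Of 15 tested on Mouse430_2, 6 were lower in NG and 0 were higher, where 13.6% and 13% of all genes tested on the array were. The groups overlapped for all 15, while they did not for 5.01% of all genes. The 6 were Pcdhb10 (-1.51), Pcdhb17 (-1.21), Pcdhb3 (-1.06), Pcdhb15 (-0.98), Pcdhb9 (-0.88) and Pcdhb7 (-0.85). Pcdhb10 read 11.24, 59.79 and 110.4 in DRG and 1.44, 20.35 and 69.74 in NG (adjusted p = 0.00965 with the blind filter, as for the next pair). Pcdhb17 read 24.53, 62.74 and 81.33 in DRG and 3.27, 18.65 and 87.17 in NG (adjusted p = 0.00417), so the highest sample of all was an NG sample. Pcdhb3 read 28.14, 53.02 and 116.4 in DRG and 6.69, 18.66 and 74.98 in NG (adjusted p = 0.0107). The call of Pcdhb7 was lost when any of 10 of the 20 samples was left out (adjusted p up to 0.0712). Of the other 9, 7 had values below 0. These genes are similar in sequence, and whether a probe set also reads a neighbouring gene was not tested.

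Contactins split between the ganglia. Cntn5, a contactin known from the auditory pathway, read 6.3, 25.69 and 42.39 (lowest, median and highest) in captured DRG neurons and 177.3, 293.2 and 504.2 in captured NG neurons on Mouse430_2. The samples were fully apart, with a difference of 3.46 (SE 0.248, adjusted p = 3.57e-11 with the filter blind to group). Of the 9 DRG samples, 4 exceeded the filter threshold, so the low side of this difference may be background. MG-U74Av2 did not read Cntn5.

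Cntn1, the contactin that pairs with Cntnap1 beside the nodes of Ranvier, was lower in NG in each experiment, without overlap of the samples. In whole ganglia its signal was 1884, 1918, 2145, 2150 and 2163 in DRG and ran from 867.8 over 1109 to 1257 in NG (-0.95, SE 0.107, adjusted p = 2.72e-06). In captured neurons on MG-U74Av2 it was 647.2, 740.6, 800.6, 1013 and 1114 in DRG and 220.5, 235.1, 247.8, 327.2 and 418 in NG (-1.55, SE 0.197, adjusted p = 5.54e-05). On Mouse430_2 it was 1351, 1879 and 2676 in DRG and 406.3, 540.8 and 869.9 in NG (-1.65, SE 0.146, adjusted p = 1.71e-09). The other probe sets of Cntn1 on that array gave -2.91 and -0.75, both called.

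Cntn3 was higher in whole NG. It read 6.1, 6.43, 19.29, 19.86 and 19.96 in whole DRG and 38.34 to 57.91, with a median of 42.3, in whole NG. The groups did not overlap, with a difference of 1.22 that is given without a p-value. Of the DRG samples 0 exceeded the filter threshold, and Cntn3 was not tested in whole ganglia with the filter blind to group. On Mouse430_2 its brighter probe set gave 0.57 (adjusted p = 0.0946) and another 0.98 (adjusted p = 9.61e-05). Cntn2 (-0.09), Cntn4 (0.10) and Cntn6 (0.16) were not called in captured neurons.

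Of the contactin-associated proteins on Mouse430_2, Cntnap5a was lower in NG. It read 34.94, 63.99 and 121.2 in DRG and 14.63, 24.39 and 48.5 in NG, with some overlap (-1.08, SE 0.211, adjusted p = 0.000348). Cntnap2, the partner of Cntn2 at the potassium channel clusters beside the nodes, gave 0.10 by its brightest probe set, 0.98 by another (adjusted p = 1.11e-05) and -0.36 by the third, of which only the second was called. Cntnap4 gave 0.00 (SE 0.153), and Cntnap1 was tested on MG-U74Av2, where it gave -0.41 in captured neurons and was not called.

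Of 12 integrin alpha subunits tested on Mouse430_2, 3 were higher and 3 lower in NG, where 13% and 13.6% of all genes tested were. Itgal, which pairs with Itgb2 to form the leukocyte integrin LFA-1, read 9.45, 34.67 and 54.66 (lowest, median and highest) in captured DRG neurons and 183.6, 318.6 and 393.6 in captured NG neurons on Mouse430_2. The samples were fully apart, and the difference was 3.14 (SE 0.233, 8.84-fold, adjusted p = 6.25e-11). The second Itgal probe set gave 0.52 (adjusted p = 0.225). On MG-U74Av2, Itgal was 38.42, 48.65, 49.5, 62.47 and 80.38 in captured DRG neurons and 55.93, 61.68, 66.83, 72.11 and 77.97 in captured NG neurons, overlapping and not called (0.25, SE 0.199). Its partner Itgb2 was 19.77 ± 12.4 in DRG and 27.98 ± 9.013 in NG on Mouse430_2 and was not called (0.48, adjusted p = 0.194). The high Itgal signal therefore rests on 1 probe set, and what that probe set reads was not tested.

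Itgav, the alpha subunit of the vitronectin receptors, was higher in whole NG and lower in captured NG neurons. Whole DRG read 726.1, 803.7, 1054, 1074 and 1113, and whole NG ran from 1020 over 1544 to 1961, with overlap (0.63, SE 0.161, adjusted p = 0.0053). With the deposited signals left unscaled this value was 0.26, and with probe sets averaged 0.32, neither of them called. Captured DRG neurons on MG-U74Av2 read 879.5, 1166, 1227, 1334 and 1414, and captured NG neurons 161, 181.6, 191.3, 203.1 and 288.6. All captured NG samples lay far below all DRG samples (-2.50, SE 0.173, 5.66-fold lower, adjusted p = 1.43e-07), and the second probe set gave -0.68 (adjusted p = 0.0308). On Mouse430_2 the signal was 116.3, 451 and 984.1 in DRG and 68.33, 88.6 and 129.2 in NG (-1.74, SE 0.315, adjusted p = 0.000148), while a dim second probe set gave -0.03. Averaging the Itgav probe sets gave -0.28, not called (adjusted p = 0.191).

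The DRG samples of Itgav on Mouse430_2 fell apart by sample number. Of the 20 captured samples on that array, 5 DRG and 5 NG samples carry a number that also occurs in the same ganglion on MG-U74Av2, and the labels do not say whether they share tissue or RNA. The 5 DRG samples with such a number read 451 to 984.1 (mean 683.7 ± 217, SD), and the 4 others 116.3 to 182 (152.8 ± 33.84). The difference between these DRG sets was 2.08 (SE 0.241, adjusted p = 8.63e-05), while the NG sets differed by 0.02. Within the shared numbers the ganglion difference was -2.65 (SE 0.227, adjusted p = 5.34e-09), and within the others it was -0.59 (SE 0.232, adjusted p = 0.0787). The test of one against the other gave -2.05 (SE 0.324, adjusted p = 0.00106). Over the array, 2.92% of probe sets differed between the DRG sets and 1.05% between the NG sets, and 4 and 0 of 68 members did. Besides Itgav these were Itgal (1.06), Cntnap2 (-0.62) and Pcdh17 (-1.23). Pcdh17 was lower in NG within the numbers not on MG-U74Av2 (-1.11, adjusted p = 0.00534) and 0.71 within the shared ones (adjusted p = 0.0798), which differed from each other by 1.83 (adjusted p = 0.0119). Such a difference of differences was called for 2 of 68 members and for 2.43% of probe sets. These sets were compared after the Itgav values had been seen, and what sets them apart was not tested.

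The laminin-binding subunits Itga6 and Itga7 were called lower in NG in each experiment, and part of these calls depended on the processing. Itga7 gave -0.58 for whole ganglia, -0.57 for captured neurons on MG-U74Av2 and -0.51 for those on Mouse430_2 (adjusted p = 0.00206, 0.0137 and 0.0098). The MG-U74Av2 call in captured neurons was lost with probe sets averaged (-0.36, adjusted p = 0.0807), although the second tested probe set was called too (-0.52), and the Mouse430_2 call was lost with equal array medians (-0.36, adjusted p = 0.103). Itga6 gave -0.68, -0.91 and -0.69 (adjusted p = 0.00492, 0.0158 and 0.0475). The second Itga6 probe set on Mouse430_2 gave -0.20 and was not called (adjusted p = 0.769). The Itga6 call was lost on MG-U74Av2 without captured DRG sample 010 (adjusted p = 0.0506) and on Mouse430_2 without any of 12 of the 20 samples (adjusted p up to 0.107). Itga3, a further laminin-binding subunit, was 136.7, 167.2, 175.9, 178.5 and 218.9 in whole DRG and ran from 79.79 over 120.3 to 155.2 in whole NG, with overlap (-0.52, SE 0.146, adjusted p = 0.00948). The second Itga3 probe set gave -0.14 (adjusted p = 0.579), and both averaged gave -0.33, which was not called (adjusted p = 0.057). In captured neurons Itga3 was not called, at 0.00 and -0.35. Itga9, a receptor for tenascin-C, was higher in captured NG neurons on Mouse430_2 by both of its probe sets (0.82, adjusted p = 0.00456, and 1.11). Itga2b, the platelet subunit, was called at 0.49, a call lost when any of 8 samples was left out.

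Among the beta subunits, every called member was lower in NG. These were 4 of 6 tested on Mouse430_2, where 13.6% of all genes tested were lower. In captured neurons on MG-U74Av2 it was 1 of 5 (11.9% of all genes), and in whole ganglia 0 of 4 (16.9%). Itgb8, which pairs with Itgav and frees latent TGF-beta, read 59.46, 131.2 and 357.2 in captured DRG neurons and 1.91, 5.96 and 26.44 in captured NG neurons on Mouse430_2. The samples were fully apart, with a difference of -3.06 (SE 0.285, adjusted p = 4.71e-09 with the filter blind to group). This was the largest toward DRG when each member is read by its brightest tested probe set. Of the 11 NG samples, 1 exceeded the filter threshold. Itgb5, which also pairs with Itgav, read 531.7, 749.6 and 817.7 in DRG and 227.7, 350.1 and 527.2 in NG, again without overlap (-1.08, SE 0.137, adjusted p = 9.18e-07), and all 4 of its probe sets were called in that direction. On MG-U74Av2 it read 441, 467.3, 485.6, 519 and 530.7 in captured DRG neurons and 208.9, 227.2, 254.7, 295.8 and 334.3 in captured NG neurons (-0.88, SE 0.149, adjusted p = 0.000682). The second Itgb5 probe set on MG-U74Av2 gave 0.00 there. In whole ganglia Itgb5 was 444.3 ± 57.73 in DRG (SD, n = 5) and 526.2 ± 44.36 in NG (SD, n = 7) and was not called (0.24, adjusted p = 0.0785).

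Itgb1, the common partner of many alpha subunits, gave different answers on the array types. On MG-U74Av2 it was 4871, 5470, 5745, 6202 and 6629 in captured DRG neurons and 4917, 5679, 6032, 6281 and 6299 in captured NG neurons, overlapping throughout (0.02, SE 0.099). Whole ganglia were alike in this respect (0.04, SE 0.098, not called). On Mouse430_2 it was 165.3, 261.8 and 526 in DRG and 12.39, 103.3 and 509.6 in NG (-1.81, SE 0.413, adjusted p = 0.00182). Of the 11 NG samples, 2 lay within the DRG range, and a second probe set gave -0.56 (adjusted p = 0.0257). Within the sample numbers shared with MG-U74Av2 the Itgb1 difference was -0.62 (adjusted p = 0.439), and within the others it was -2.91 (adjusted p = 8.96e-05). The test of one against the other gave 2.29 (adjusted p = 0.0698). Itgb7, a lymphocyte subunit, was 76.17 ± 12.85 in DRG and 38.94 ± 17.22 in NG on Mouse430_2 (-0.93, adjusted p = 0.00129). On MG-U74Av2 it was not called (-0.30 in captured neurons and -0.22 in whole ganglia).

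Of the integrin binding proteins, Itgb1bp1, which binds the cytoplasmic tail of Itgb1, was 955.7, 998.6, 1102, 1121 and 1127 in captured DRG neurons and 480.7, 647, 733.7, 906.3 and 912.4 in captured NG neurons on MG-U74Av2. The samples were apart (-0.56, SE 0.166, adjusted p = 0.0267), but 2 further probe sets gave -0.02 and -0.21 and were not called. In whole ganglia it gave -0.27 (adjusted p = 0.04). This call was lost when any of 8 of 12 samples was left out, and the captured call with any of 4 of 10. On Mouse430_2 it was not called (-0.29).

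**Figure D3:**
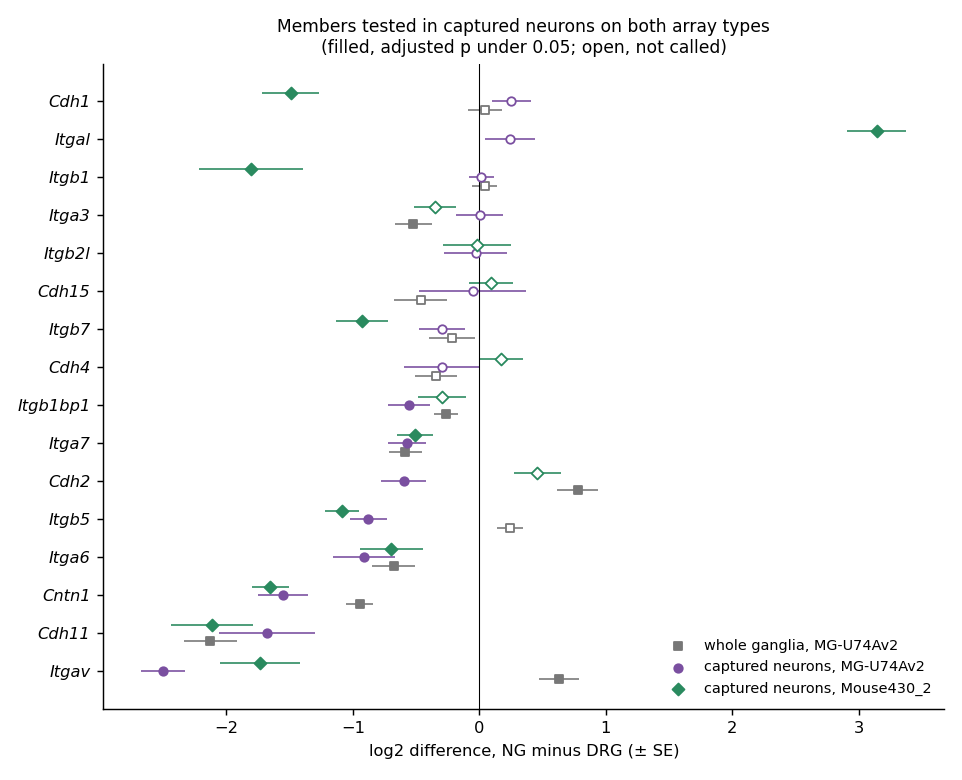
Difference NG minus DRG (log2, bars of 1 SE) of the 16 members tested in captured neurons on both array types, with whole ganglia where tested. Filled symbols were called. Cntn1, Cdh11, Itga6 and Itga7 lie below 0 in each experiment, while Itgav and Cdh2 lie above 0 in whole ganglia and below 0 in captured neurons on MG-U74Av2.

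Captured neurons were tested on both array types for 16 members. On MG-U74Av2 8 of these were called and on Mouse430_2 10, where 22.9% and 26.6% of all genes tested were called. Both arrays called 6 of the 16 in the same direction and 0 in opposite directions. A further 2 were called on MG-U74Av2 alone, 4 on Mouse430_2 alone and 4 on neither. The matching shares over all genes are not given, so this agreement is not read as particular to the members. Some samples of these experiments carry the same numbers. Within the samples on Mouse430_2 whose numbers do not occur on MG-U74Av2 (4 DRG and 6 NG), Cntn1 gave -1.61 (adjusted p = 4.47e-06), Itgb5 -1.19 (adjusted p = 8.38e-05) and Cdh11 -1.76 (adjusted p = 0.00875). Itga6 (-0.66), Itga7 (-0.40) and Itgav (value given above) were not called in that smaller set. Pcdh19 gave 3.95 there and 3.92 within the shared numbers, Cntn5 3.44 and 3.59, Cdh22 3.64 and 2.76, Itgal 3.61 and 2.83, Itgb8 -3.06 and -3.07, Pcdh7 -2.83 and -2.67, and Cdh8 -1.93 and -1.57.

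The next comparison set captured neurons against whole ganglia on MG-U74Av2, in 1 limma fit of the 4 groups that shares its samples with the ganglion comparisons. Capture and RNA amplification cannot be told apart in it. In DRG, 10 of 22 tested members were called (5 higher in captured neurons, 5 in whole ganglia), where 48.3% of 6261 genes were called, 22.9% and 25.4% in these directions. In NG, 13 of 22 were called (7 higher in captured neurons and 6 in whole ganglia), where 56.3% of genes were, 26% and 30.3% in these directions. The shares are close to those over all genes. Fibroblast markers were lower in captured samples for 6 of 8 genes in DRG and 8 of 8 in NG, and 0 were higher. Satellite glia and Schwann cell markers were lower for 5 and higher for 3 of 11 in DRG, and lower for 8 and higher for 1 in NG. Neuron markers were lower in captured samples for 5 and higher for 2 of 10 in DRG, and lower for 6 and higher for 3 in NG.

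Itgb4, the laminin-binding partner of Itga6 in Schwann cells and perineurium, fell most in both ganglia among members that were called in both. Its signal was 598.4 ± 262.7 in whole DRG (SD, n = 5) and 131.6 ± 38.6 in captured DRG neurons (SD, n = 5), a difference of -2.04 (SE 0.298, adjusted p = 3.78e-06). In NG it was 671 ± 268 (SD, n = 7) and 126.3 ± 60.33 (SD, n = 5), a difference of -2.32 (SE 0.276, adjusted p = 1.06e-07). Itga6 (-1.36 in DRG and -1.59 in NG), Cntn1 (-1.26 and -1.87) and Cdh2 (-0.85 and -2.22) were lower in captured neurons too. Itgb1 (0.48 and 0.45), Itgal (0.93 and 0.64) and Cdh4 (0.98 and 1.02) were higher in captured neurons of both ganglia. Itgal did not pass the filter in whole ganglia and entered this fit through the captured samples. Its whole-ganglion signals, 12.17 to 36.88 in DRG and 28.47 to 51.27 in NG, may be background. Without array scaling Itgb1 was no longer called in DRG and Itgal no longer in NG. Itga7 was called higher in captured neurons by its brightest probe set (0.43 and 0.45), while the second gave -0.33 in DRG (adjusted p = 0.0839) and 0.14 in NG. Neither Itga7 call held without array scaling or with probe sets averaged (0.07, adjusted p = 0.637, and 0.20, adjusted p = 0.108). Cdh11 was lower in captured DRG neurons (-0.89), a call lost without whole DRG sample 026 or captured DRG sample 003 (adjusted p = 0.056 and 0.109). Cntnap1 was higher in captured DRG neurons (0.98), and Cdh1 (0.48), Cdh3 (0.65) and Itgax (0.58) were higher in captured NG neurons. Like Itgal, Cntnap1 entered through the captured samples, and its 14.31 to 30.09 in whole DRG may be background. The call of Itgax was lost when any of 5 of 22 samples was left out, and that of Cdh1 without array scaling (adjusted p = 0.0968). With both probe sets of Cdh3 averaged, its value was 0.18 and not called (adjusted p = 0.413).

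The ganglion difference was not the same in captured and whole samples, by the interaction term of that fit, for 4 of 22 members (18.2%) and for 19.3% of all genes tested. The captured difference was the higher one for 1 member and the lower one for 3, against 8.24% and 11.1% of all genes. Itgav fell from 1501 ± 358.2 in whole NG (SD, n = 7) to 205.1 ± 49.18 in captured NG neurons (SD, n = 5), while DRG held 954 ± 176.1 and 1204 ± 205.1 (SD, n = 5 each). The captured difference was lower than the whole difference by -3.13 (SE 0.245, adjusted p = 1.63e-09), and by -1.06 in the second probe set (adjusted p = 0.00297). Cdh2 gave -1.38 (SE 0.244, adjusted p = 0.000239) and Itgb5 -1.12 (SE 0.172, adjusted p = 4.22e-05), and the second Itgb5 probe set -0.18, not called. Cdh3, P-cadherin, gave 0.87 (SE 0.27, adjusted p = 0.0249), with 141.5 ± 36.68 in whole DRG, 108.3 ± 32.24 in whole NG, 118.3 ± 21.44 in captured DRG neurons and 174.7 ± 45.15 in captured NG neurons. The Cdh3 call was lost without whole DRG sample 084 or 019 or captured NG sample 007 (adjusted p up to 0.059), and with its 2 probe sets averaged it gave 0.17 (adjusted p = 0.712).

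**Figure D4:**
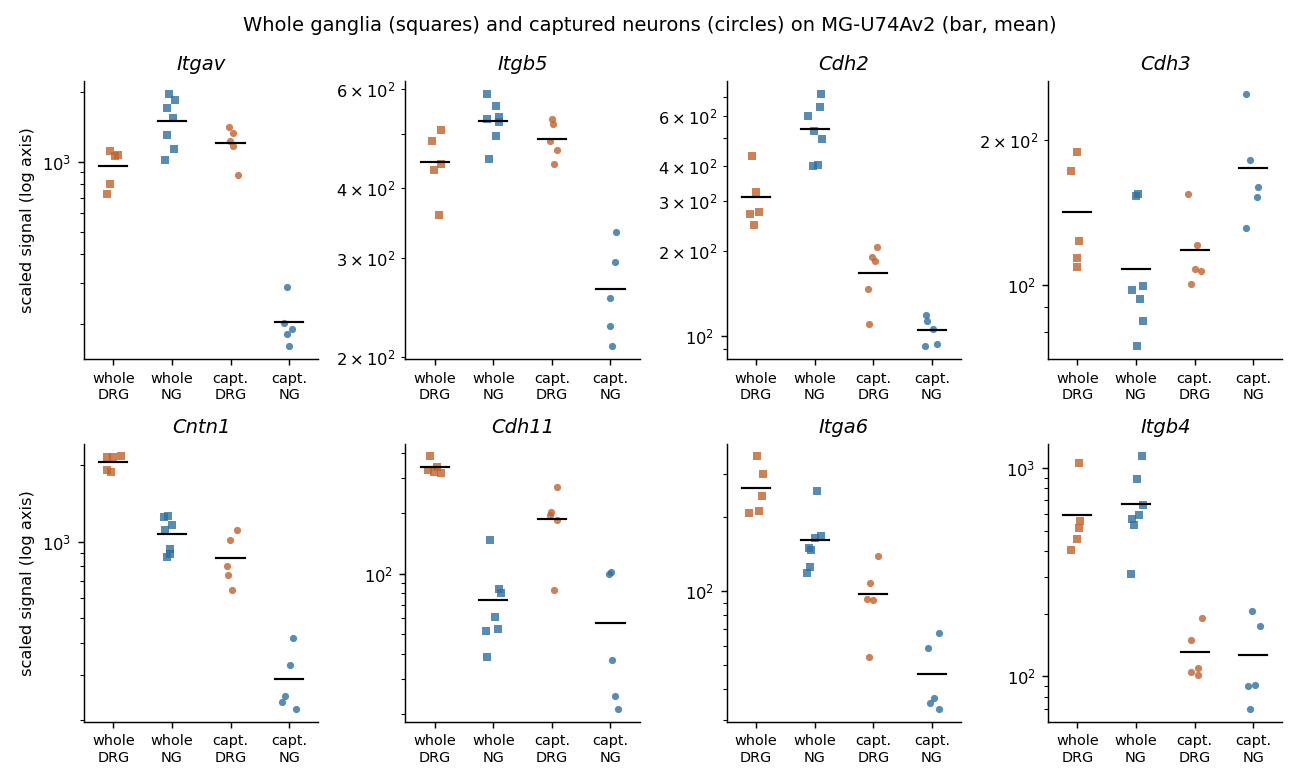
Scaled signal (log axis) of 8 members in each MG-U74Av2 sample, whole ganglia as squares and captured neurons as circles, DRG in orange and NG in blue, with a bar at the mean. Captured NG neurons stand apart from the other 3 groups for Itgav and Itgb5, and both captured groups lie below whole ganglia for Itgb4.

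Genes that work with the members were read from lists of partners. Beside the list counts below, 13% of all genes tested on Mouse430_2 were called higher and 13.6% lower in NG. These shares were 11% and 11.9% in captured neurons on MG-U74Av2, and 20.6% and 16.9% in whole ganglia. Among 13 tested catenins and cadherin partners on Mouse430_2, 3 were higher and 5 lower in NG. Ctnnbip1, an inhibitor of beta-catenin, was higher in whole NG (0.38, adjusted p = 0.0379) and in captured NG neurons on Mouse430_2 (0.77, adjusted p = 2.43e-05). Plakoglobin, Jup, was lower in captured NG neurons on MG-U74Av2 (-0.63, adjusted p = 0.0179) and on Mouse430_2 (-0.63, adjusted p = 0.00409). Pkp2 gave 0.54 in whole ganglia and -0.82 in captured neurons on MG-U74Av2. In captured neurons on that array 0 of 10 were higher and 2 lower, and in whole ganglia 3 and 1 of 10.

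Of 27 tested partners of contactins and genes of axonal junctions on Mouse430_2, 3 were higher and 11 lower in NG, with 1 and 3 of 14 in captured neurons on MG-U74Av2 and 4 and 4 of 15 in whole ganglia. Kcna1, a potassium channel of the clusters beside the nodes, fell from 2449 ± 491.2 (SD, n = 9) in DRG to 260.1 ± 78.99 (SD, n = 11) in NG on Mouse430_2 (-3.23, adjusted p = 1.52e-14), with -2.88 in captured neurons on MG-U74Av2 and -0.44 in whole ganglia. Its subunit Kcnab2 gave -1.32, -1.04 and -0.68 in the same order, all called. The adhesion protein Nrcam was lower in captured NG neurons (-1.06 and -1.23) and higher in whole NG (0.58). Ptprg, a receptor phosphatase that binds contactins, was higher in NG in each experiment (1.24, 1.21 and 0.72), and Ank3, the ankyrin of nodes, was lower on Mouse430_2 (-0.90) and in whole ganglia (-0.999).

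Of 21 tested cytoplasmic partners of integrins on Mouse430_2, 6 were higher and 2 lower in NG, with 3 and 2 of 15 in captured neurons on MG-U74Av2 and 2 and 3 of 14 in whole ganglia. Ptk2b, a focal adhesion kinase, was lower in NG in each experiment (-1.87, -2.29 and -1.10 in the same order). Bcar1 (0.55 and 0.82) and Cd47 (1.01 and 0.33) were higher in captured NG neurons on both array types. Cd81 was higher on Mouse430_2 (0.65) and in whole ganglia (0.42), Lims1 was higher in captured neurons on MG-U74Av2 (0.38) and in whole ganglia (0.30), and Cd9 was lower in these latter (-1.14 and -0.33). Among 27 tested integrin ligands on Mouse430_2, 1 was higher and 4 lower in NG, and 1 and 1 of 15 were in captured neurons on MG-U74Av2. In whole ganglia 3 were higher and 1 lower of 15. The laminin chain Lamb1 gave 0.41 in whole ganglia and -0.60 in captured neurons on MG-U74Av2.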

How the data were processed

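The deposited values were linear signal intensities of probe sets, made by the authors with MAS5 (submitters' processing notes), for which no version is named. Array trimmed means (2% at each end) ranged from 174.9 to 408.3 (whole ganglia), 187.7 to 274.5 (captured, MG-U74Av2) and 84.24 to 200.5 (Mouse430_2), so arrays of a type were scaled to 1 trimmed mean. Scaling decides which differences centre on 0. The pseudocount was the 20th percentile of the values: 11.7, 11 and 7.48 in these experiments and 11.4 in the joint fit. Tests used limma 3.58.1 (lmFit, then eBayes, trended and robust) under R 4.3.3, two-sided, Benjamini-Hochberg over all probe sets tested, threshold 0.05, and were tested on simulated data. Precision is limited by how many arrays there are. Symbols came from the platform annotation, and 92 of 92 members were found in the RefSeq table.

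Per-sample values are given for members called with a difference of at least 2-fold and for those tested in every experiment whose calls differed. Members, lists and rule were chosen with earlier results of these data known. Alternatives covered scaling, pseudocount, filter, fit, probe sets and left-out samples. A group-blind filter, the comparison between the sets of sample numbers and the set as a covariate were added after seeing the data.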

Additional observations from a re-analysis of the deposited data

Results flagged for a closer look

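Groups of 4 to 10 samples were examined for members with per-sample values, so the 11 captured NG samples on Mouse430_2 were not. Of 68 groups examined, 6 held a sample set apart by a gap larger than the 95% limit of Dixon's test. Chance gives such a gap in about 1 in 20 groups. Cdh11 was 147.1 in whole NG sample 073, with the next at 84.37. On Mouse430_2 the captured DRG samples held Cntn3 at 174.7 in sample 014 (next 93.74), Itgb8 at 357.2 in sample 015 (next 191.1) and Cdh22 at 31.43 in sample 006 (next 13.68) as high values. They held Itgb5 at 531.7 in sample 006 (next 681.7) and Cdh2 at 136.6 in sample 010 (next 293.4) as low values. Cdh11, Itgb8, Cdh22 and Itgb5 stayed called without these samples, and Cntn3 and Cdh2 were not called on Mouse430_2.

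For 4 members the NG minus DRG difference was not the same in captured neurons and in whole ganglia by the interaction term of the limma fit: Itgav at -3.13, Cdh2 at -1.38, Itgb5 at -1.12 and Cdh3 at 0.87. What lies behind these values was not tested.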

How the results depend on the processing

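No called value reversed under any alternative run. Leaving out each sample in turn gave 8 to 9 called members in whole ganglia, 6 to 8 for captured neurons of the MG-U74Av2 experiment, 27 to 33 for those of Mouse430_2, 9 to 11 and 12 to 13 for captured against whole DRG and NG, and 3 to 5 for the difference between the ganglion differences. Averaging all probe sets of a gene gave 5 called members in whole ganglia, with 14 genes tested. The samples on Mouse430_2 whose numbers occur on MG-U74Av2 gave 19 of 67, with fewer samples, and the others 20 of 71. The number set as a covariate gave 31. Unscaled signals left 2 calls in the difference between the ganglion differences, where Cdh2 (-1.08, adjusted p = 0.0564) and Itgb5 (-0.83, adjusted p = 0.0868) were lost in limma, and the cause was not tested. On Mouse430_2 the split of 6 higher and 24 lower in NG became 10 and 19 with equal medians and 10 and 22 with quantile normalization, as the median of all probe sets moved from -0.051 to 0.085 with equal medians. Averaging probe sets also ended the calls of Itgb1bp1 in whole ganglia (-0.10) and captured neurons (-0.26) on MG-U74Av2, and of Itga6 (-0.45) and Cdh10 (-0.28) on Mouse430_2. Cntn3, Cdh6, Pcdh12 and Pcdh20 were gained and Itga6, Itga7, Cdh10, Pcdhb7 and Pcdhb9 lost with equal medians. In whole ganglia, unscaled signals gave 1 higher and 10 lower (median -0.289, against 0.051). The sample number as a replicate block gave 8 calls on MG-U74Av2 and 31 on Mouse430_2, and 1 of 4 and 2 of 7 DRG samples correlated best with their own number. Samples sharing a number did not deviate together (correlations -0.106 to 0.111 and -0.154 to 0.155). This cannot tell whether they share an animal or a batch, and the labels do not say what a number marks. No paired analysis was possible in whole ganglia because the groups share 1 number. Over all members and settings other than left-out samples, 1787 values kept their side of the threshold, 65 lost and 32 gained a call.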
